A study of Mus musculus with 6 samples.

Results

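The genes described here encode the subunits of RNA polymerase II (Pol II), the enzyme that makes messenger RNA, and the factors that start, pause, release and carry it along genes. They are 47 genes of the 25899 in the deposited table, chosen by symbol as Pol II subunits, kinases of the polymerase, bromodomain (BET) proteins, pausing factors and elongation complexes, and all 47 had enough counts to be tested. Their newly made RNA was counted in E14tg2a, a mouse embryonic stem cell line of 129SV background, in cells that carry a stable cRAF-ErT2 cassette, a RAF kinase fused to a receptor domain that 4-hydroxytamoxifen (4OHT) switches on. The treated group had 250 nM 4OHT for 2 h, which activates ERK signalling through the cassette, and the other group was left untreated. Each group held 3 libraries, 1 from each of the clones a, b and c. Every culture, untreated ones included, carried the cassette, was kept in serum and LIF, and had grown with 2 µM of the GSK3 inhibitor CHIR99021 until 24 h before treatment. From then on the medium held 250 nM PD173074, an inhibitor of FGF receptors, in place of CHIR99021. Ethynyl uridine, a uridine analogue that cells build into RNA, was added at 5 mM for the last 15 min, and RNA carrying it was captured and sequenced. 4OHT was given to no cells without the cassette among the samples used here, so effects of the drug itself and of ERK cannot be told apart.

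As Pol II leaves the promoter, the kinase module of the initiation factor TFIIH, with CDK7 at its core, phosphorylates its tail. Soon after, DSIF and NELF hold the enzyme near the start of the gene. P-TEFb, a complex of CDK9 and a T-type cyclin, releases it, and is itself held inactive by a small nuclear RNA complex with HEXIM1 and LARP7. BET proteins and the super elongation complex bring active P-TEFb to genes, while the PAF complex, SPT6, FACT, TFIIS and the kinases CDK12 and CDK13 act on the enzyme as it travels. Immediate early genes, the first targets of ERK, are known to be controlled in part at this release step.

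Libraries of clones a, b and c held 9431819, 8686555 and 7295334 counts after 4OHT and 11549152, 12168380 and 9745747 without it. Values below are CPM, counts relative to library size after scaling by the TMM method. Errors are SD for CPM and SE for log2 fold changes, with n = 3 libraries per group. A gene was called when its p-value in edgeR's quasi-likelihood test, adjusted over all 13869 genes tested, was below 0.05. Known targets of ERK rose: the ERK phosphatase gene Dusp6 had 131 ± 6.79 CPM after 4OHT and 29.8 ± 3.37 CPM without it, and the AP-1 gene Fos had 132 ± 8.65 CPM after 4OHT and 4.20 ± 0.632 CPM without it. All 8 stem cell markers were expressed, summing to 2040 to 2454 CPM after 4OHT and 2772 to 2879 CPM without it, but they did not move alike. Nanog had 79.8 to 117 CPM after 4OHT and 298 to 335 CPM without it, and Esrrb, Sall4 and Tdgf1 were also lower in every treated library. Zfp42 had 928 to 1090 CPM after 4OHT and 608 to 704 CPM without it. Pou5f1 was likewise higher in every treated library, at 214 to 240 CPM after 4OHT and 174 to 176 CPM without it. The groups overlapped for Sox2 and Dppa5a. Markers of other cell types had lower sums than the stem cell markers in both groups. After 4OHT, 6 fibroblast genes (mostly Twist1) summed to 20.7 to 24.8 CPM, 4 trophoblast genes to 6.31 to 8.57, 4 primitive endoderm genes to 8.41 to 11.0, 3 neural genes to 3.54 to 5.12 and 2 blood genes to 1.14 to 2.05 CPM. Without 4OHT, in the same order, the sums were 2.73 to 3.53, 3.45 to 4.31, 6.89 to 9.996, 5.78 to 7.37 and 0 to 0.098 CPM. Tubb3 (neural) and Hbb-bs (blood) had no count in any library, and Col3a1 (fibroblast) none after 4OHT. The part of these markers in the results was not tested, and in bulk samples fewer cells of a type and less RNA per cell cannot be told apart. Clone c differed most from the other clones, with a chi-square per gene of 5.21 to 11.5 against clones a and b within a group, where a and b differed by 2.26 to 2.46.

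After 4OHT, 22 of the 47 genes were called higher and 4 lower, which is 46.8% and 8.51% of them, where 28.5% of all tested genes were called higher and 28.6% lower. In either direction 26 (55.3%) were called, close to the 57.1% of all tested genes. Their median log2 fold change was 0.21, against -0.0005 over all tested genes. Brd2, a BET gene, rose most, and Mllt3, a super elongation complex gene, fell most. The direction was the same in 3 of 3 clones for each of the 22 and each of the 4. Since these genes were called from the same libraries, this agreement is no separate evidence. Most changes were small: 10 of 47 genes (21.3%) moved by at least 0.5 on the log2 scale and 1 (2.13%) by at least 1, where 40.5% and 16.5% of all tested genes did. Values of the treated and untreated libraries did not overlap for 29 of the 47 (61.7%), against 63.3% of all tested genes. The split of the calls depends on scaling. Scaled by library size alone, the fold changes of all genes shifted by a median of -0.20 and 29.7% of all calls were higher, against 49.9%, and among the 47 genes 13 were called higher and 6 lower, their median being 0.01 and that of all genes -0.20.

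**Figure D1:**
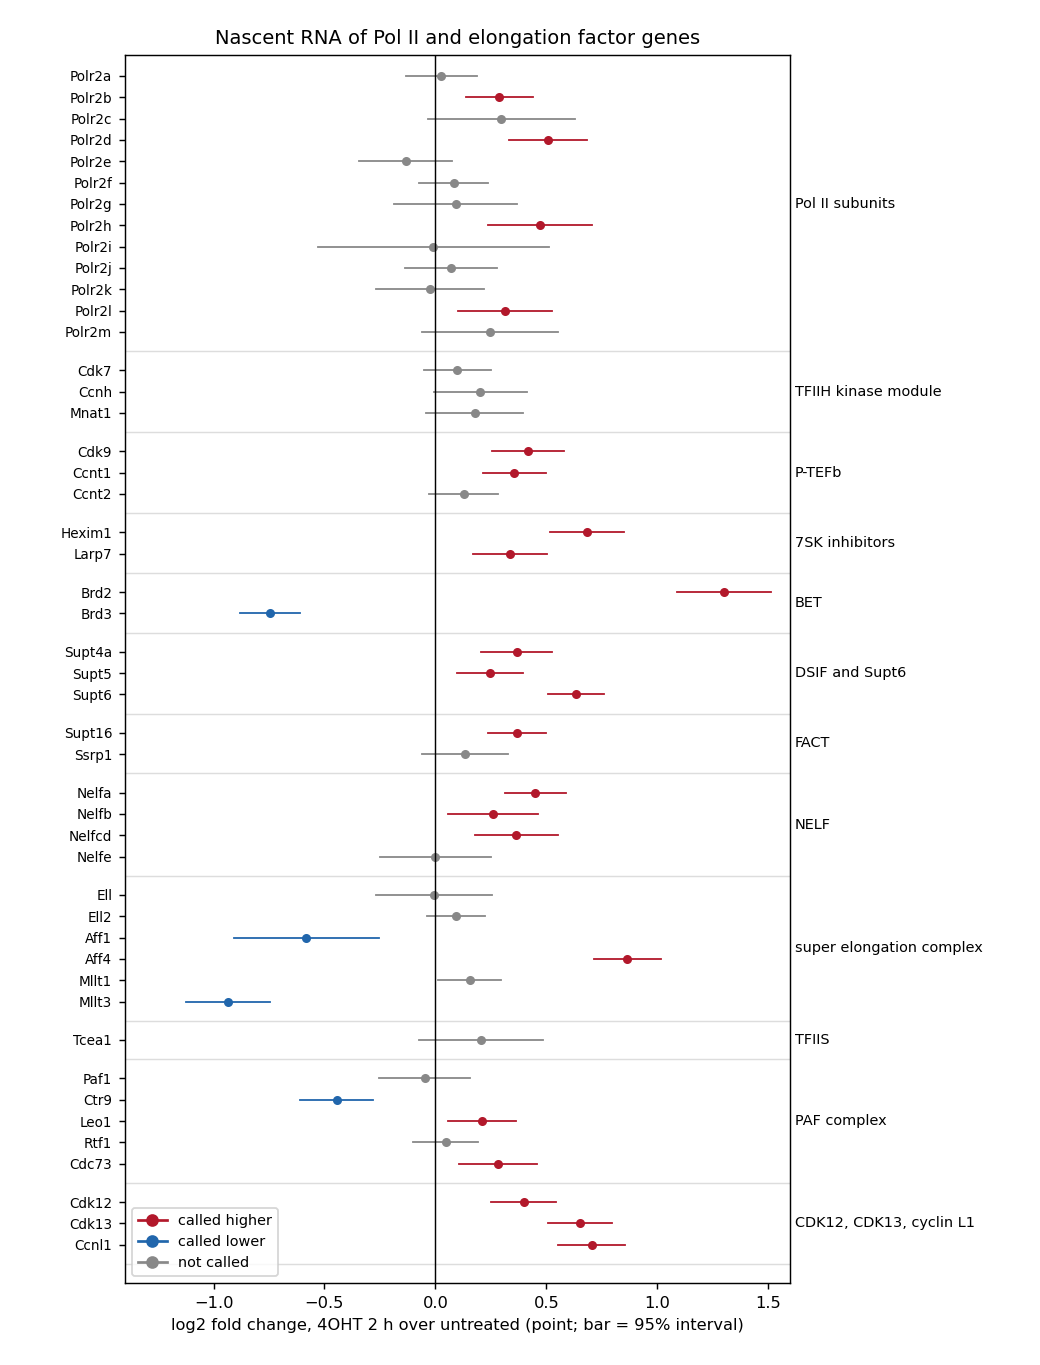
Log2 fold changes of the 47 genes (4OHT 2 h over untreated, x axis) with 95% intervals, grouped by role. Brd2, at 1.30, lies farthest right and Mllt3, at -0.93, farthest left, while most Pol II subunits lie close to 0.

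**Figure D2:**
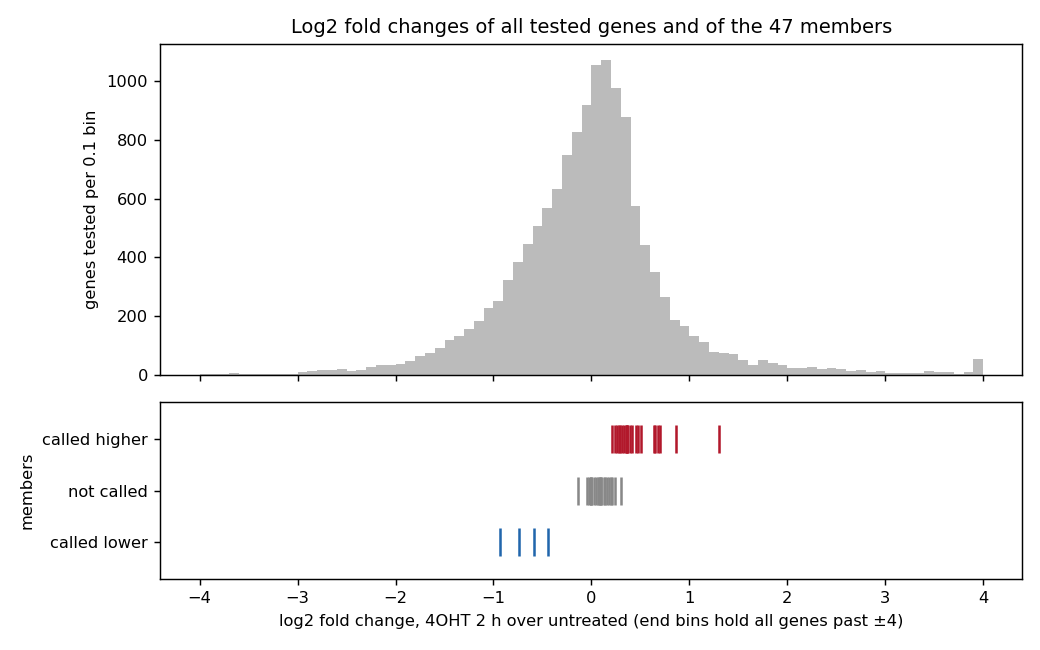
Histogram of the log2 fold changes of all 13869 tested genes (upper panel, genes per bin) above the values of the 47 genes, each a tick on the same x axis, by call (lower panel). The 47 genes lie between -0.93 and 1.30, inside the wider spread of all genes.

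The subunits of the enzyme moved little. Of the 13 Pol II genes, 4 were called higher (30.8%, near the 28.5% of all tested genes) and 0 lower (edgeR, with 0 lower also at an unadjusted p below 0.05 and by DESeq2 or limma-voom), with a median of 0.09, which turned to -0.11 by library size and -0.01 with upper-quartile scaling. Polr2a, which encodes the catalytic subunit with the repeated tail, had 320, 287 and 305 CPM in clones a, b and c after 4OHT and 283, 292 and 321 CPM without it. These groups overlapped, and the log2 fold change of 0.03 ± 0.07 had a 95% interval of -0.13 to 0.19 (edgeR adjusted p = 0.769). Its partner in the catalytic centre, Polr2b, rose by 0.29 ± 0.07 (125 ± 5.42 CPM after 4OHT and 102 ± 6.02 CPM without it). Polr2d, part of the stalk that in budding yeast can leave the enzyme, had 67.7, 67.3 and 67.4 CPM after 4OHT and 45.4, 44.5 and 52.6 CPM without it. The 3 treated libraries were nearly alike and all above the untreated ones, a rise of 0.51 ± 0.08 (edgeR adjusted p = 0.000355). Polr2g, the other stalk subunit, had 38.1 ± 3.78 CPM after 4OHT and 35.8 ± 6.06 CPM without it, a log2 fold change of 0.09 that was not called. Polr2h and Polr2l, small subunits shared with polymerases I and III, rose by 0.47 ± 0.10 and 0.31 ± 0.10. The calls of Polr2b and Polr2l were lost by library size and without clone a or b, and Polr2l was not called by DESeq2. Polr2h lies across the chloride channel gene Clcn2 on the other strand, which had 73.8 CPM after 4OHT and 27.1 CPM without it, a log2 fold change of 1.44. Since the use of strand in counting is not stated, reads of Polr2h and Clcn2 cannot be told apart where they overlap. Polr2b overlaps Igfbp7 likewise, which had 3.49 CPM after 4OHT and 5.43 CPM without it.

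The other shared subunits, Polr2e, Polr2f and Polr2k, had log2 fold changes of -0.13, 0.08 and -0.03 and were not called, although Polr2e was lower by library size (-0.33, adjusted p = 0.0122). Polr2j had 0.07. Polr2i had -0.01 on only 31 to 43 reads per library after 4OHT and 45 to 62 without it, with a 95% interval of -0.53 to 0.51. Polr2c, at 0.30 ± 0.15, passed with clone as a block, in edgeR (adjusted p = 0.00171, against 0.111 without it) and in DESeq2 (0.0361). Polr2m, whose product GDOWN1 binds the enzyme and opposes initiation, had 0.25 ± 0.14 and passed with the block in edgeR (adjusted p = 0.0123, against 0.152) but not in DESeq2 (0.131). Summed, the 13 genes made up 840, 790 and 846 CPM after 4OHT and 716, 718 and 808 CPM without it. Per kb of annotated exon, levels were highest for Polr2d, at 66.5 CPM per kb after 4OHT and 46.8 without it. Polr2a followed, at 43.0 after 4OHT and 42.3 without it. Counts grew less than in proportion to exon length, so this measure favours short genes such as Polr2d (1015 exon bases, against 7067 for Polr2a). Polr2i had the lowest level, 3.90 CPM per kb after 4OHT and 3.98 without it. It overlaps Tbcb on the other strand, which had 17.8 CPM after 4OHT and 16.6 CPM without it. Polr2j likewise overlaps Lrwd1, with 39.1 CPM after 4OHT and 34.4 CPM without it. Reads of these pairs cannot be told apart where they overlap.

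Of the TFIIH kinase genes 0 of 3 were called by edgeR without a clone term, where 57.1% of all tested genes were. There were also 0 at an unadjusted p below 0.05 and 0 called by DESeq2 or limma-voom. Cdk7, the kinase, had a log2 fold change of 0.10 ± 0.07 with a 95% interval of -0.05 to 0.25. Ccnh, its cyclin, had 0.20 ± 0.09 and Mnat1, its assembly factor, 0.18 ± 0.10, and both passed with clone as a block in edgeR (adjusted p = 0.0323 and 0.00186, against 0.0922 and 0.147). With the block in DESeq2, Mnat1 was called (0.0393) and Ccnh was not (0.19). Ccnh had 40.9 CPM after 4OHT and 35.5 CPM without it. Rasa1, which overlaps it on the other strand, had 61.2 CPM after 4OHT and 67.1 CPM without it.

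Of the 5 genes for P-TEFb and its inhibitors, 4 were called higher, where 28.5% of all tested genes were. By library size 3 were called higher, where 2407 of all 13869 tested genes were. The kinase gene Cdk9 (chromosome 2, 32705784 to 32713076, minus strand, GRCm38 as for all positions here) had 92.5, 90.4 and 101 CPM after 4OHT and 66.7, 72.5 and 73.5 CPM without it. All treated libraries were above all untreated ones, a rise of 0.42 ± 0.07 (edgeR adjusted p = 0.000685). Its cyclin Ccnt1 rose by 0.36 ± 0.06, while the alternative cyclin Ccnt2 had 0.13 ± 0.07, called only with clone as a block in edgeR (adjusted p = 0.0137, against 0.141) and not by the same block in DESeq2 (0.129). Hexim1 (chromosome 11, 103116231 to 103119725, plus strand), an intronless gene whose protein blocks the kinase, had 78.4, 88.7 and 90.0 CPM after 4OHT and 53.5, 51.6 and 54.9 CPM without it. The rise was 0.68 ± 0.07, or 1.61-fold (edgeR adjusted p = 3.13e-05), and stood in all 18 alternatives tried. Larp7, which stabilises the inhibitory RNA, rose by 0.34 ± 0.08 (59.8 ± 3.43 CPM after 4OHT and 47.4 ± 2.58 CPM without it), a call lost by library size (0.14, adjusted p = 0.143) or without clone b.

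The BET genes moved in opposite directions. Brd2 (chromosome 17, 34112023 to 34122634, GRCm38, minus strand) was counted 9651, 8866 and 9243 times after 4OHT and 5714, 6163 and 5269 times without it, although the untreated libraries were deeper. In CPM this was 1102, 1097 and 1351 after 4OHT and 458, 468 and 516 without it. All treated libraries lay far above the untreated ones, and the log2 fold change was 1.30 ± 0.10, or 2.46-fold (edgeR adjusted p = 2.14e-06), higher than in 95.4% of tested genes. H2-DMa, which overlaps it on the other strand, had 0.425 CPM after 4OHT and 0.532 CPM without it. Brd3 (chromosome 2, 27445579 to 27507662, minus strand) had 80.2, 75.4 and 80.1 CPM after 4OHT and 132, 129 and 134 CPM without it. The libraries of a group were close to each other and the groups far apart, a log2 fold change of -0.74 ± 0.06, or 0.597-fold (edgeR adjusted p = 4.70e-06).

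The super elongation complex had 1 gene higher and 2 lower of 6 (16.7% and 33.3%, against 28.5% and 28.6% of all tested genes). Its scaffold genes also moved in opposite directions. Aff4 (chromosome 11, 53350833 to 53421830, plus strand) had 421, 423 and 377 CPM after 4OHT and 225, 230 and 216 CPM without it. It rose by 0.86 ± 0.07, or 1.82-fold (edgeR adjusted p = 3.51e-06). Aff1 (chromosome 5, 103692374 to 103855322, plus strand) had 116, 99.1 and 80.8 CPM after 4OHT and 177, 145 and 121 CPM without it. Its level differed by clone in both groups, but it was lower after 4OHT in each, with log2 differences of -0.61, -0.54 and -0.59 in clones a, b and c. The log2 fold change of -0.58 ± 0.15 (edgeR adjusted p = 0.00668) became adjusted p = 2.90e-09 with clone as a block, and missed the threshold without clone b (0.0642). Mllt3, which encodes the YEATS-domain reader AF9 (chromosome 4, 87769925 to 88033364, minus strand), had 31.4, 32.8 and 33.6 CPM after 4OHT and 68.5, 57.9 and 60.3 CPM without it. No treated library came near an untreated one, a log2 fold change of -0.93 ± 0.09, or 0.524-fold (edgeR adjusted p = 9.81e-06). Its paralogue Mllt1, which encodes ENL, had 82.8 ± 3.45 CPM after 4OHT and 74.3 ± 1.98 CPM without it, a log2 fold change of 0.15 that passed only with clone as a block in edgeR (adjusted p = 0.0185, against 0.0643, and 0.169 with the block in DESeq2). The elongation factors Ell2 (131, 129 and 122 CPM after 4OHT, 120, 118 and 121 CPM without it) and Ell (103 ± 14.7 CPM after 4OHT and 103 ± 13.4 CPM without it) were not called, at 0.09 ± 0.06 and -0.01 ± 0.12.

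**Figure D3:**
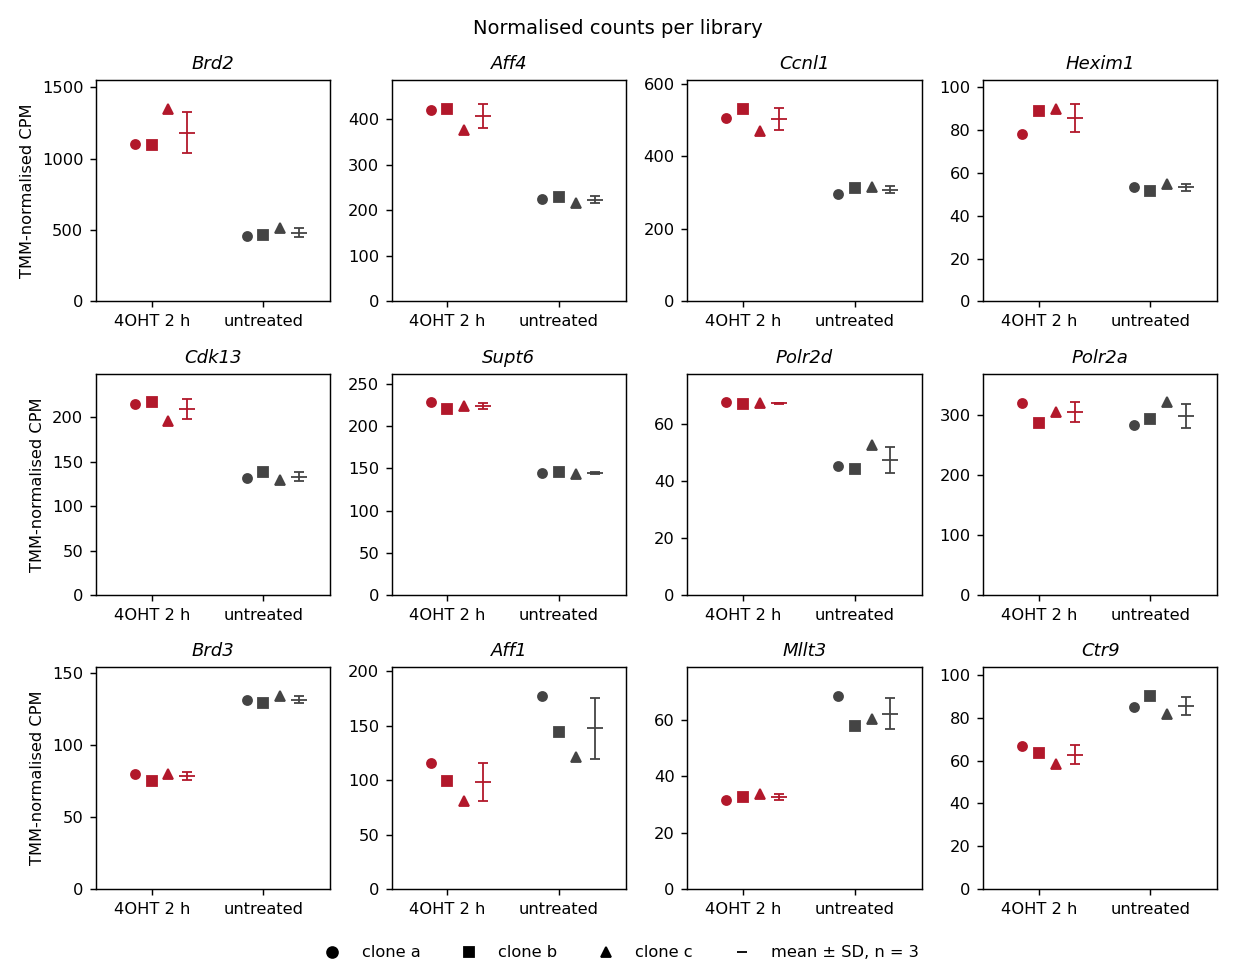
TMM-normalised CPM of 12 genes in each library (y axis, from 0), 4OHT 2 h beside untreated, with a symbol for each clone and the mean ± SD. The treated libraries lie above the untreated ones for Brd2, Aff4, Ccnl1, Hexim1, Cdk13, Supt6 and Polr2d, overlap them for Polr2a, and lie below them for Brd3, Aff1, Mllt3 and Ctr9.

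The promoters of the BET and AFF genes that moved in opposite directions are shown for comparison. Each run holds 250 bases before and 50 after the annotated start of RefSeq's furthest upstream window (GRCm38.p6), on the strand given, with capitals where a motif named below was found.
Brd2 (chr17:34122558-34122857, minus strand): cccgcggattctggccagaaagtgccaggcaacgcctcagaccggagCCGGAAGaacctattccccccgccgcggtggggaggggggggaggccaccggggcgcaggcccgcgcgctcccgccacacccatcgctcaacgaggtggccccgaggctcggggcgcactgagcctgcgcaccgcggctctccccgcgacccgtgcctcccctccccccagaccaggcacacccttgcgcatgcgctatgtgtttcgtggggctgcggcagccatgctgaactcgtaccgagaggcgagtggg
Brd3 (chr2:27475349-27475648, minus strand): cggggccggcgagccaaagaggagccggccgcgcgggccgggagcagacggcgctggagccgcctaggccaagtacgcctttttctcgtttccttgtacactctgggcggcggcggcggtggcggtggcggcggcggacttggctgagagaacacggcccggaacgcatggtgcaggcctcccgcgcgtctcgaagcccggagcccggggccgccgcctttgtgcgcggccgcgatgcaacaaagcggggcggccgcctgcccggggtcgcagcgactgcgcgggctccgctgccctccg
Aff4 (chr11:53350517-53350816, plus strand): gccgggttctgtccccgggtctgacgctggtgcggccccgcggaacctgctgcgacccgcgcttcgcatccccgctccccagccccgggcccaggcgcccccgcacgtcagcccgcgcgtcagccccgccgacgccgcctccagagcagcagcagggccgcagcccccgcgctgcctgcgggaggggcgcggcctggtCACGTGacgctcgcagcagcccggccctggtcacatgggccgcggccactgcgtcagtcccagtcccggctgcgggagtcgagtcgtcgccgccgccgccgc
Aff1 (chr5:103753912-103754211, plus strand): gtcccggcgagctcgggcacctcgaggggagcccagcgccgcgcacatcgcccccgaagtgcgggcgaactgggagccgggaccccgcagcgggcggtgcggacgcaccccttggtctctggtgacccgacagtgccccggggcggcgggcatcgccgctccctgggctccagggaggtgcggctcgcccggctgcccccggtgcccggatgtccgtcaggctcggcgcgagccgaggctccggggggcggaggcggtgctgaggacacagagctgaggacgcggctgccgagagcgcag
In this order they are 72.3%, 75.0%, 79.0% and 77.3% G or C. The starts used for Brd2, Brd3 and Aff1 lie inside the gene spans given above, that of Brd2 close to its upstream end, since GENCODE also lists starts further upstream. The bases after the start were found in GENCODE transcripts of Brd2, Brd3 and Aff1, while the Aff4 window ends before GENCODE's first start, so its direction could not be checked this way. The Brd2 window holds an ETS motif (CCGGAAG) that begins 203 bases before the start, and the Aff4 window an E-box (CACGTG) that begins 52 bases before it. Of 39 member genes with a window, 12 (30.8%) held the ETS motif on either strand, against 17.3% of the 10619 tested genes with a window and 9.14% of all 27025 genes with a window. Among these 39, the motif was found in 6 of the 20 called higher and in 0 of the 3 called lower. The other genes with the motif, Cdk7, Mllt1, Polr2c, Polr2f, Polr2j and Rtf1, were not called. Whether the motif goes with the calls was not tested. The E-box was in 4 (10.3%, against 10.1% of tested genes), the cAMP response element TGACGTCA in 3, namely Ccnl1, Ell2 and Larp7 (7.69%, against 3.13%), TATAAA in 3 (7.69%, against 6.85%) and the AP-1 motif TGANTCA in 1 (2.56%, against 4.90%). The EGR motif GCGTGGGCG and the serum response element were in 0 of the 39, and in 1.23% and 1.33% of tested genes. The median G and C content of the windows was 65.0% for the member genes and 52.7% for all 27025 genes with a window. It was not computed for the tested genes alone. Of these motifs, the serum response element can contain TATAAA, and none contains another. These are letter matches, which say nothing of binding.

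Since a ratio of counts within a library does not depend on how libraries are scaled, the 6 pairs of paralogues among the members were also set against each other. Brd2 had 13.8, 14.6 and 16.9 reads per read of Brd3 after 4OHT and 3.48, 3.62 and 3.85 without it, a difference of 2.04 in mean log2 ratio. Aff4 had 3.64, 4.27 and 4.66 reads per read of Aff1 after 4OHT and 1.27, 1.59 and 1.78 without it (1.45), and Mllt1 had 2.64, 2.42 and 2.56 per read of Mllt3 after 4OHT and 1.12, 1.26 and 1.22 without it (1.08). The ratio of Cdk13 to Cdk12 was 0.573, 0.615 and 0.590 after 4OHT and 0.493, 0.501 and 0.497 without it (0.25). In these 4 pairs the treated ratios lay above all untreated ones, and the exact permutation test over the 3 against 3 libraries gave p = 0.10, two-sided, which is the smallest it can give, and 0.15 adjusted over the 6 pairs. The ratios of Ccnt1 to Ccnt2 (difference 0.23, exact p = 0.20) and of Ell2 to Ell (0.10, exact p = 0.70) overlapped between groups. Within clones, Ccnt1 over Ccnt2 and the 4 pairs above were higher after 4OHT in 3 of 3 clones, and Ell2 over Ell in 2 of 3. The exact sign-flip test over the 3 clones gave p = 0.25 for each of the 5 pairs, the smallest it can give, and 0.50 for Ell2 over Ell, unadjusted. This comparison was chosen after the values had been seen.

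**Figure D4:**
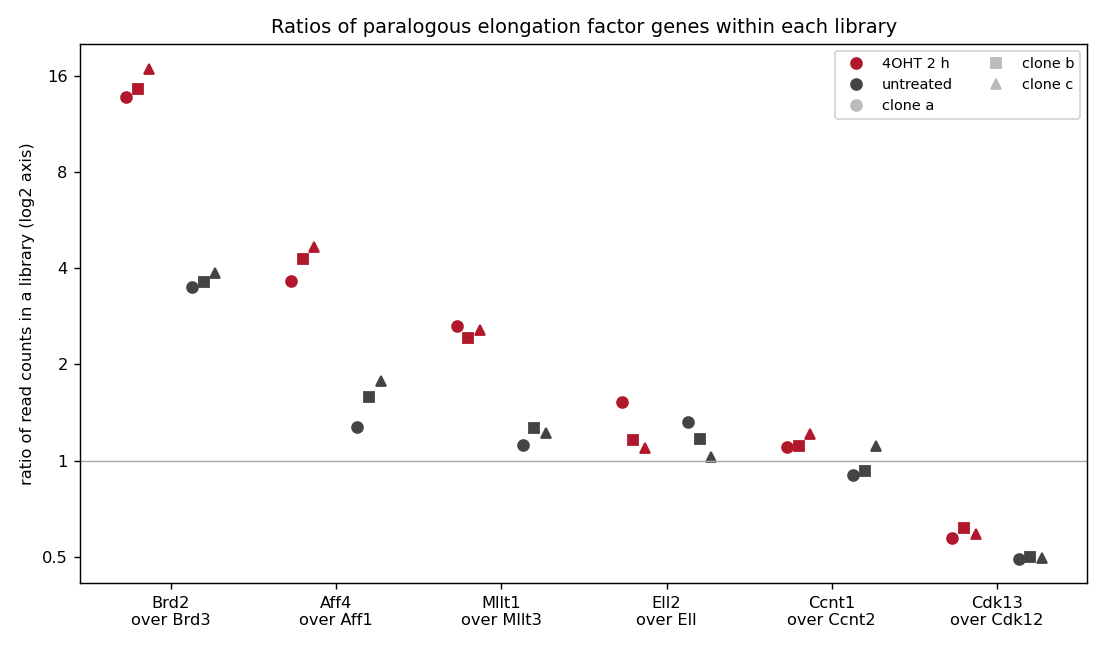
Ratio of read counts of 6 pairs of paralogues within each library (log2 y axis), with 4OHT 2 h left of untreated for each pair. The treated ratios lie above the untreated ones for Brd2 over Brd3, Aff4 over Aff1, Mllt1 over Mllt3 and Cdk13 over Cdk12.

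Of the pausing factors, both DSIF genes and 3 of the 4 NELF genes (75%) were called higher, where 28.5% of all tested genes were. Of DSIF, the larger subunit gene Supt5 had 208, 185 and 209 CPM after 4OHT and 169, 166 and 173 CPM without it. The groups were apart, but the rise of 0.24 ± 0.07 (edgeR adjusted p = 0.00993) fell short by library size (0.05, adjusted p = 0.59), with upper-quartile scaling and without clone a. The small subunit Supt4a rose by 0.37 ± 0.07 (44.5 ± 0.330 CPM after 4OHT and 34.6 ± 0.840 CPM without it), called under every alternative except library size. By library size 1 of the 4 NELF genes was called higher, where 2407 of all 13869 tested genes were. Nelfa had 94.5, 94.5 and 89.7 CPM after 4OHT and 66.4, 68.2 and 69.5 CPM without it, a rise of 0.45 ± 0.06 (edgeR adjusted p = 0.000157) that held throughout. It overlaps Nsd2 on the other strand, which rose by 0.36. Nelfcd rose by 0.36 ± 0.08 and overlaps Ctsz on the other strand, which rose by 0.29, and Nelfb rose by 0.26 ± 0.09, a call that 9 of 18 alternatives did not make, leaving out clone a or b among them. Nelfe had 23.3 ± 2.57 CPM after 4OHT and 23.3 ± 1.83 CPM without it, a log2 fold change of 0.00 with an interval of -0.25 to 0.25.

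Of the factors that travel with the polymerase, the histone chaperone gene Supt6 (chromosome 11, 78206746 to 78245987, minus strand) had 228, 220 and 224 CPM after 4OHT and 144, 145 and 143 CPM without it, a rise of 0.63 ± 0.06, or 1.55-fold (edgeR adjusted p = 7.90e-06). It shares ground with Sdf2 on the other strand, which had a log2 fold change of 0.07. FACT, the chaperone that moves histones H2A and H2B, showed a rise in Supt16 of 0.37 ± 0.06 (237 ± 4.50 CPM after 4OHT and 184 ± 5.88 CPM without it). Its partner Ssrp1 had 0.13 ± 0.09, which passed with clone as a block in edgeR (adjusted p = 0.0243, against 0.214) but not in DESeq2 (0.161). Supt16 overlaps Rpgrip1 on the other strand, which had 22.1 CPM after 4OHT and 18.9 CPM without it. Ssrp1 likewise overlaps P2rx3, with 2.785 CPM after 4OHT and 5.07 CPM without it. Tcea1, the TFIIS gene whose product rescues backtracked polymerase, had 0.21 ± 0.13. It passed with the block in edgeR (adjusted p = 0.00576, against 0.185) but not in DESeq2 (0.103). Tcea1 overlaps Gm37988 on the same strand, which had a log2 fold change of -0.64.

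Of the 5 genes of the PAF complex, 2 were called higher (40%) and 1 lower (20%), against 28.5% and 28.6% of all tested genes. By library size the complex had 0 genes higher and 2 lower, where 2407 of all 13869 tested genes were called higher and 5684 lower. Ctr9, its scaffold, fell by 0.45 ± 0.07 on the log2 scale (62.9 ± 4.34 CPM after 4OHT and 85.7 ± 4.29 CPM without it, edgeR adjusted p = 0.000568), lower in 3 of 3 clones. Cdc73 and Leo1 rose by 0.28 ± 0.08 and 0.21 ± 0.07, calls lost by library size and without clone a or b. Leo1 was called in 7 of 18 alternatives, and not by DESeq2 (adjusted p = 0.0839). Paf1 had 36.2, 32.8 and 30.3 CPM after 4OHT and 34.1, 36.1 and 32.6 CPM without it. These groups overlapped, at -0.05 ± 0.09 with an interval of -0.25 to 0.16, though Paf1 was lower by library size (-0.25, adjusted p = 0.0434). Rtf1 had 105 ± 4.56 CPM after 4OHT and 102 ± 4.64 CPM without it and was not called (0.05 ± 0.07).

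Cdk12, Cdk13 and Ccnl1 were called higher in all 18 alternatives tried. Cdk13 (chromosome 13, 17710315 to 17805097, minus strand), a kinase of the travelling polymerase's tail, had 215, 217 and 196 CPM after 4OHT and 131, 139 and 129 CPM without it, a rise of 0.65 ± 0.07 (edgeR adjusted p = 1.72e-05). Its paralogue Cdk12 rose by 0.40 ± 0.07 (a mean of 353 CPM after 4OHT and 268 CPM without it). Ccnl1 (chromosome 3, 65946151 to 65958249, minus strand), the cyclin L1 gene, whose product partners CDK11 and acts in splicing, had 506, 532 and 471 CPM after 4OHT and 298, 312 and 316 CPM without it. All treated libraries were far above the untreated ones, a rise of 0.70 ± 0.07, or 1.63-fold (edgeR adjusted p = 1.33e-05). Ccnk, which encodes the cyclin of CDK12 and CDK13 and is not among the 47 genes, had 60.5 ± 4.15 CPM after 4OHT and 55.6 ± 1.81 CPM without it. Its log2 fold change of 0.12 ± 0.07 was not called (edgeR adjusted p = 0.181), and it was named after its values were seen.

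Differences between clones were tested beside treatment, in 1 joint test of the clone terms. Of the 47 genes 9 were called (edgeR, 19.1%), where 12.6% of all tested genes were. Clone c stood below clone a in Aff1 (-0.53), Tcea1 (-0.42), Mnat1 (-0.25) and Cdc73 (-0.17). It stood above clone a in Polr2c (0.43), Polr2m (0.42), Ell (0.38), Polr2g (0.31) and Brd2 (0.24). Clone b against clone a had -0.26 in Aff1, 0.25 in Ell, 0.17 in Polr2m and -0.14 in Tcea1, and -0.04 to 0.05 in the others. The joint test does not say which clone differs. Aff1 had the smallest p (edgeR adjusted p = 2.70e-05). The treatment's effect could not be tested for a difference between clones, with 1 library for each clone and group. Left out altogether, clone c took the counts to 25 higher and 4 lower, clone a to 16 and 4, and clone b to 16 and 3. Cdk7, Mnat1 and Ssrp1 were called higher without clone c.

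Other parts of the transcription machinery were counted in the same fit, where 28.5% of all tested genes were called higher and 28.6% lower. Genes for other elongation and Pol II-associated factors, 39 of them tested, gave 20 higher (51.3%) and 7 lower (17.9%) and a median log2 fold change of 0.19. Spty2d1, an SPT2-type histone chaperone gene, rose by 1.01 ± 0.09 (59.4 ± 5.20 CPM after 4OHT and 29.5 ± 1.29 CPM without it), and Eaf1, which encodes a partner of ELL, by 0.69 ± 0.06. Of 15 general transcription factor genes 5 rose (33.3%, near the 28.5% of all tested genes) and 1 fell (median 0.17), led by Gtf2b, the TFIIB gene (0.66 ± 0.07), and the TFIIH genes Gtf2h1 (0.41 ± 0.07) and Ercc3 (0.40 ± 0.07). Of 14 Integrator genes, whose complex ends transcription early at many genes, 7 were higher (50%) and 2 lower (median 0.17), with Ints6 at 0.58 ± 0.08, Ints13 at 0.54 ± 0.07 and Ints7 at 0.32 ± 0.06. Of 11 genes for subunits specific to RNA polymerase III, 4 were higher (36.4%) and 1 lower (median 0.11), with rises in Polr3d (0.65 ± 0.08), Polr3b (0.26 ± 0.07) and Polr3e (0.19 ± 0.06). Scaled by library size, these 4 lists in this order had 10, 3, 2 and 1 genes higher and 10, 2, 4 and 4 lower. With that scaling 2407 of all 13869 tested genes were called higher and 5684 lower. The polymerase III counts were 1 higher and 0 lower without the treated library of clone b or without clone a or b, 2 and 0 when clone a or c lost its untreated library, 4 and 0 when clone c lost its treated library, and 2 and 0 by DESeq2. Without the treated library of clone a, 0 general factor and 0 Integrator genes were lower, and without that of clone b 0 Integrator genes. Without clone a, the counts of the first 3 lists were 12, 3 and 3 higher and 4, 0 and 0 lower, and without clone b the elongation and Integrator lists had 12 and 4 higher and 2 and 1 lower. Across the 47 genes Spearman's rho between gene span and log2 fold change was -0.03, and it was -0.03 across 13744 tested genes with a known span, which are not independent replicates.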

How the data were processed

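The values are raw counts, deposited as whole numbers of reads per gene, with no normalization by the authors. STAR, featureCounts and mm10 are named, per the submitters' processing notes, while their versions, the strand setting and the counted feature are not stated in the sources used here. Log2 counts grew by 0.58 per log2 exon length and 0.02 per log2 intron length over 12392 protein-coding genes. Levels are therefore per kb of exon (GENCODE M21, GRCm38, the same build as mm10). Since counts grew less than in proportion to exon length, this division raises genes with little exon sequence relative to others. Mature RNA in the captured fraction cannot be told apart from new RNA.

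The 47 genes, the lists and the tests were chosen with earlier results of these data known. edgeR 4.0.16 (R 4.3.3) was run with filterByExpr (minimum count 10, total 15), TMM factors and glmQLFTest, without a clone term, and p-values were adjusted by Benjamini-Hochberg over 13869 genes. SE is the log2 fold change over the square root of F. Since no label names separate cultures beyond the clones, p-values describe only the spread among these libraries. A count of 3 stood for 0.247 to 0.411 CPM.

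Libraries with the same clone letter form pairs, because each clone is labelled in both groups. Correlations of the libraries' deviations from their group's mean were 0.28 (a), 0.16 (b) and 0.36 (c) for the same clone, and ran between -0.28 and 0.07 for different clones. Alternatives were other scalings and filters, DESeq2 1.42.0, limma 3.58.1 with voom, a clone block, and libraries or clones left out. Values per library are given for genes called with a log2 fold change of at least 0.5 in size and for Polr2a, Cdk9, Hexim1, Brd2, Supt5, Nelfa, Ell2 and Paf1, with ± SD for some others, and of each further list the 3 genes with the smallest p are named, except 1 gene that is not reported here.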

Additional observations from a re-analysis of the deposited data

How the results depend on the processing

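Of the 22 genes called higher, 13 kept that call under all 18 alternatives that give each gene a value, and of the 4 called lower 3 did, the exception being Aff1 without clone b. No value of the 47 genes turned its direction past the threshold. Scaling by library size took the genes called higher to 13 of the 47 and to 2407 over the whole table, against 22 and 3953, because it shifts the fold changes of all genes by a median of -0.20 relative to TMM. A log2 fold change of at least 1 left 1 member higher and 0 lower, and 947 genes higher and 1324 lower in all. With clone as a replicate block, edgeR called 30 of the 47 higher and 4 lower, adding 8 genes named above with their p-values, while DESeq2 with the block called 21 and 4, with Polr2c and Mnat1 the 2 of those 8 among them. Leaving out single libraries gave 19 to 24 higher and 4 lower, and leaving out a clone 16 to 25 higher and 3 to 4 lower. Without a treatment term 0 members were called between clones (edgeR, and 0 at an unadjusted p below 0.05), against 9 with it and 10 by limma-voom; that fit leaves the treatment in the residual spread. Counts of the lists beside the 47 genes stayed within 1.5 times in 102 of 144 comparisons. Depth limits Polr2i, with at most 62 reads in a library, and its overlap with Tbcb may too.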
